A study of Mus musculus with 2 samples.

Results

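The proneural and Olig factors are transcription factors of the basic helix-loop-helix (bHLH) family. 9 of them were examined here: Atoh1, Neurog1, Neurog2, Neurod1, Neurod2, Neurod4, Olig1, Olig2 and Olig3. Each probe whose RefSeq accession maps to one of these genes was taken, which gave 9 probes of 56595, 1 for each of 9 genes among 23784 named genes. 5 members were measured on both arrays, and 4 were not well above background on either. The arrays compare 2 cultures of 1 mouse glioblastoma stem cell line, which was derived from brain tumours induced by a Sleeping Beauty transposon and grows as floating spheres with EGF and bFGF but no serum. One culture carried a lentiviral Gli2 shRNA and the other a lentiviral non-target control shRNA, both stably transduced, so that both groups share the tumour line, the vector type and the medium. Each group is 1 array, which means that no value has a replicate, no test was possible, and the spread between cultures is unknown. The labels do not say how many Gli2 shRNA sequences or clones were used.

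bHLH factors of this kind bind DNA as dimers, mostly with the widely expressed E proteins, at a short site called the E-box. Atoh1, Neurog1 and Neurog2 act early and commit neural progenitors to neuronal fates, and the Neurod factors act later in neurons that are differentiating. Olig1 and Olig2 direct oligodendrocyte precursors, while Olig2 also marks ventral progenitors and is a known regulator of glioma stem cells. Gli2 carries Hedgehog signals to the genome, and Hedgehog signalling turns on Olig2 in the ventral neural tube and acts with Atoh1 in cerebellar granule neuron precursors.

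The DNA just before the start sites of the measured members is shown because E-boxes are where these factors, and their own family, bind. 8 of 9 members had an entry in the promoter table of RefSeq (build GRCm38.p6). The 250 bases before the annotated start of 4 measured members follow, 5′ to 3′ on the gene's strand. Capitals mark the E-box CANNTG or, in Olig2, the letters GACCACC, the core of the site that GLI proteins bind.

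Neurog1 (chr13:56252181-56252430, minus strand): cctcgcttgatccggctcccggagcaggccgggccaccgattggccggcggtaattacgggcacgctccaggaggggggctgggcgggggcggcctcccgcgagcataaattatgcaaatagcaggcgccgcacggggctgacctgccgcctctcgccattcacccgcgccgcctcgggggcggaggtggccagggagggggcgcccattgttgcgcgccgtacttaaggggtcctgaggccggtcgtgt
Neurod1 (chr2:79456637-79456886, minus strand): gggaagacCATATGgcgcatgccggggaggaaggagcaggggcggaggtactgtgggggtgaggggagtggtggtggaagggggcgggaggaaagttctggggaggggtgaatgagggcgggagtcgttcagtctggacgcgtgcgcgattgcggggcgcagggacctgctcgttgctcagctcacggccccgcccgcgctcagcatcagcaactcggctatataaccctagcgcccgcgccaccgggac
Neurod2 (chr11:98329646-98329895, minus strand): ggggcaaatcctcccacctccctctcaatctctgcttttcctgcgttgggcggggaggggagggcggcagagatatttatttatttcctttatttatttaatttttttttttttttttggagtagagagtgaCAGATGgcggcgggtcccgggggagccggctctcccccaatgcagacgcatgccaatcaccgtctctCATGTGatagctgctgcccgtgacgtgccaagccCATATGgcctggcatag
Olig2 (chr16:91225300-91225549, plus strand): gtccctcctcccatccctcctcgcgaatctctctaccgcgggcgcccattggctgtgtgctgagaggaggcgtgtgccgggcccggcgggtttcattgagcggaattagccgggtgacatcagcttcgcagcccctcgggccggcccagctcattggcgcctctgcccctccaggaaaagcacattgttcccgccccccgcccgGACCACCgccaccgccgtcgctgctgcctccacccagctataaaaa

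Both strands were searched, and CANNTG reads alike on both. Neurod2 had 3 E-boxes, beginning 118, 51 and 17 bases before the start, and Neurod1 had 1, beginning 242 bases before it. The first of those in Neurod2, CAGATG, is a form known to be bound by Neurog and Neurod factors. In Olig3, which is not printed, 1 E-box began 30 bases before the start. The windows of Neurog1, Olig2, Neurog2, Atoh1 and both annotated starts of Neurod4 held no CANNTG. Among 32851 windows of the same length, 66.2% held at least 1 E-box and 12.2% held 3 or more. The 9-letter GLI site GACCACCCA was in none of the members' windows and in 0.225% of all windows. Its 7-letter core GACCACC, part of the longer site, was in the Olig2 window, 46 bases before the start, and in 2.34% of all windows. These are matches of letters and not measured binding.

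Values below are the processed signals of the scanner software, and differences of log2 signals after each array was scaled to its 75th percentile. For probes at background the processed signal stays above 0 even where the background-subtracted value is below 0, so there it is not a measured level. A difference is Gli2 shRNA minus control. The error beside it combines the errors that the software gives the spots of each array, and it does not cover the cultures. Its median over the genes measured on both arrays was 0.20, and bright probes lay close to that value. It is not a spread between repeated measurements. A probe counts as measured where the software marked it well above background, and as at background where it did not. The lowest such signal was 15.2 on the Gli2 shRNA array and 12.8 on the control array. Signals of different probes depend on the probe and are not set against each other, except in the summed signals of marker lists. Those sums hold every gene of the list, also those at background, and mainly follow the brightest probes.

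Olig1 was lower in the Gli2 shRNA array, and Neurod1 was slightly higher. Neurog1 was also slightly higher, except after normexp background correction (-0.053), and Olig2 and Neurod2 were near the control. None of the 5 differed by 2-fold or more, where 3.63% of the 14563 genes measured on both arrays did. At 1.5-fold, 1 of the 5, Olig1, was past the limit and lower, beside 12.5% of all genes in either direction and 6.54% lower. It fell short of 1.5-fold with median scaling (-0.48) and normexp (-0.56). The median over the 5 members was -0.23, which is the Olig2 value, against 0.003 over all genes. 3 of the 5 lay below 0, beside 7232 of the 14563 genes. Gli2 itself had a signal of 57.9 in the Gli2 shRNA array and 98.1 in the control array, a difference of -1.04 ± 0.22. Its difference was short of 2-fold with normexp (-0.64), median scaling (-0.90) and cyclic loess (-0.97).

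**Figure D1:**
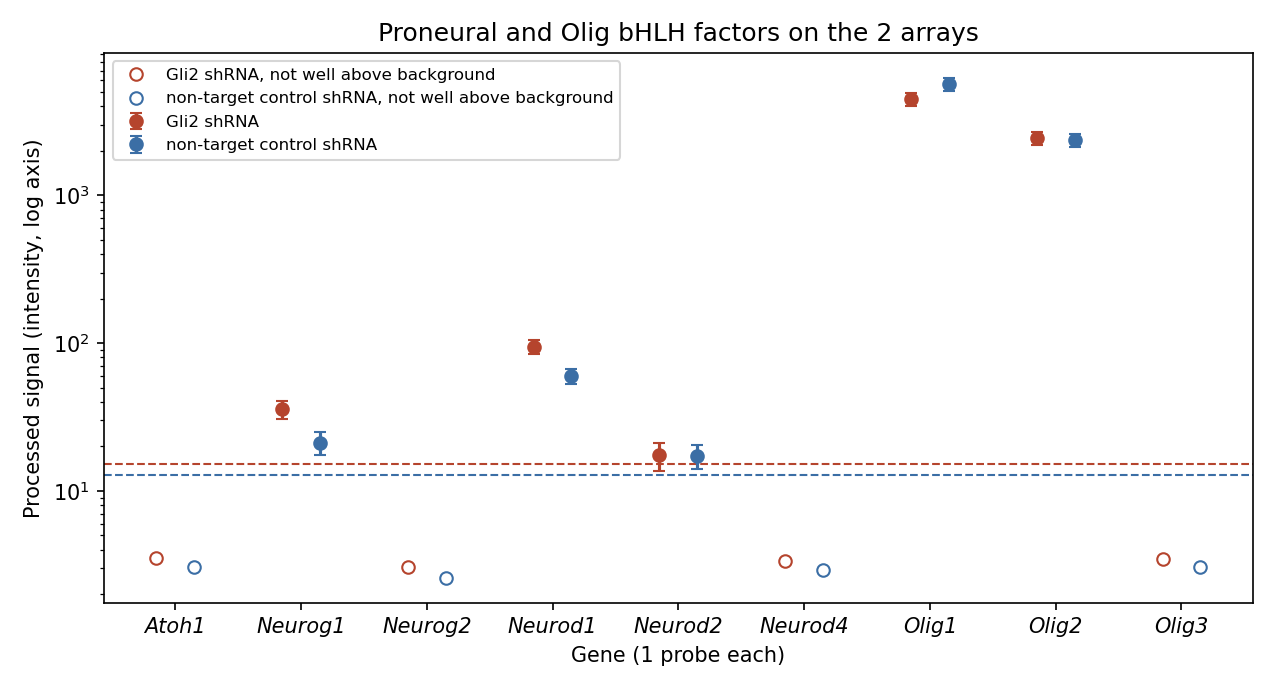
Processed signal (log axis) of the 1 probe of each of the 9 genes in the Gli2 shRNA array (red) and the control array (blue), with the software error as bars for measured probes and open circles for probes not well above background. Dashed lines are the lowest signals well above background (15.2 and 12.8), and Atoh1, Neurog2, Neurod4 and Olig3 lie below both lines.

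Olig1, which drives maturation of oligodendrocytes and myelin repair, was farthest from 0 of the members with this scaling. With median scaling, quantile normalization and cyclic loess Neurog1 lay farther, at 0.61, 0.63 and 0.67. Its probe (NM_016968, chromosome 16) gave a signal of 4497 ± 450 in the Gli2 shRNA array and 5670 ± 567 in the control array. The scaled difference was -0.61 ± 0.20, a level 65.5% of control, or 1.53-fold lower. Before scaling the Olig1 signal was 79.3% of control, so that part of the difference comes from the scaling. The 75th percentile signal was 399 on the Gli2 shRNA array and 329 on the control array. Of all genes measured on both arrays, 11.6% lay at least as far from 0. Of the 1410 genes within 0.5 log2 units of its mean brightness, 5.04% did.

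Olig2, which specifies oligodendrocyte precursors and motor neuron progenitors, was at a similar level in both arrays. The probe (NM_016967, chromosome 16) read 2444 ± 244 in the Gli2 shRNA array and 2359 ± 236 in the control array. The scaled difference was -0.23 ± 0.20, and it ran from -0.24 to -0.09 over the alternatives. The unscaled signal was 104% of control, so the sign of the Olig2 difference comes from putting the arrays on a common scale. 44.4% of all genes measured on both arrays lay at least as far from 0. Olig1 and Olig2 are next to each other on chromosome 16 in the gene table of GRCm38.p6. The Olig1 difference was lower than that of Olig2 by 0.39 (-0.39 ± 0.29), a quantity that a common scaling factor cannot change, and it ran from -0.39 to -0.32 over the alternatives tried. The next protein-coding gene on the Olig1 side, the interferon receptor gene Ifnar2, differed by 0.06 ± 0.20. On the Olig2 side, 4932438H23Rik was at background on both arrays and Paxbp1 differed by 0.12 ± 0.20. The locus Gm52261 overlaps Olig2 in the gene table, and whether the Olig2 probe also reads it was not tested.

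Olig3, a factor of dorsal spinal cord and hindbrain progenitors, was at background. Its signal (NM_053008, chromosome 10) was 3.45 in the Gli2 shRNA array and 3.02 in the control array. The raw pixel median of the Olig3 spot was 41 over a local background of 25 in the Gli2 shRNA array, and 38 over 31 in the control array. Neither spot was well above background.

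Neurog1, a proneural factor of sensory neurons and forebrain progenitors, was dim and higher in the Gli2 shRNA array. Its probe (NM_010896, chromosome 13) gave 35.6 ± 4.9 in the Gli2 shRNA array and 21.2 ± 3.6 in the control array. These signals are 2.35 times and 1.66 times the lowest signal well above background on their arrays. The Neurog1 difference was 0.47 ± 0.32, or 1.39-fold, and 37.4% of the 1303 genes of like brightness lay at least as far from 0. With normexp, a model-based background correction, the Neurog1 difference was -0.053, so its direction depends on how background is treated. Neurog2, a proneural factor of cortical projection neurons, (NM_009718, chromosome 3) gave 3.05 in the Gli2 shRNA array and 2.58 in the control array and was at background on both.

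Neurod1, a factor of neuronal differentiation and survival, was also higher in the Gli2 shRNA array. The probe (NM_010894, chromosome 2) read 94.7 ± 10.2 in the Gli2 shRNA array and 59.6 ± 6.7 in the control array, clear of background on both. The Neurod1 difference was 0.39 ± 0.22, or 1.31-fold. It lay above 0 in all 7 alternatives tried, from 0.15 with normexp to 0.53 with median scaling. Among these, the authors' table, flagged spots kept and the mean of probes could hardly change it. They use the same processed signal of its 1 probe and gave 0.39 each. Of the 1201 genes of like brightness, 36.0% lay at least as far from 0. A difference of this size was therefore common among genes at that brightness.

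Neurod2, a factor of mature cortical and cerebellar neurons, was just above background. Its signals (NM_010895, chromosome 11) were 17.3 ± 3.7 in the Gli2 shRNA array and 17.2 ± 3.3 in the control array. The unscaled signals differed by 0.01 on the log2 scale, and the scaled difference of -0.27 ± 0.41 was smaller than its software error. Quantile normalization put the Neurod2 difference at 0.02. Neurod4 (NM_007501, chromosome 10), a factor of retinal and midbrain neurons, was at background, at 3.36 in the Gli2 shRNA array and 2.89 in the control array.

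Atoh1, the granule neuron and hair cell factor, was also at background. The signal (NM_007500, chromosome 6) was 3.52 in the Gli2 shRNA array and 3.04 in the control array. Here the raw pixel median of the Atoh1 spot was below its local background on both arrays, at 33 against 36 in the Gli2 shRNA array and 35 against 44 in the control array. Over the 4 members at background, signals ran from 3.05 to 3.52 in the Gli2 shRNA array and from 2.58 to 3.04 in the control array. Each of these signals was smaller than its software error. For Atoh1 the background-subtracted value was -2.62 in the Gli2 shRNA array and -2.07 in the control array. The lowest signal well above background was 4.31 times the highest of these in the Gli2 shRNA array and 4.21 times in the control array. No fold is given for them, and a transcript below this limit would not have been seen.

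**Figure D2:**
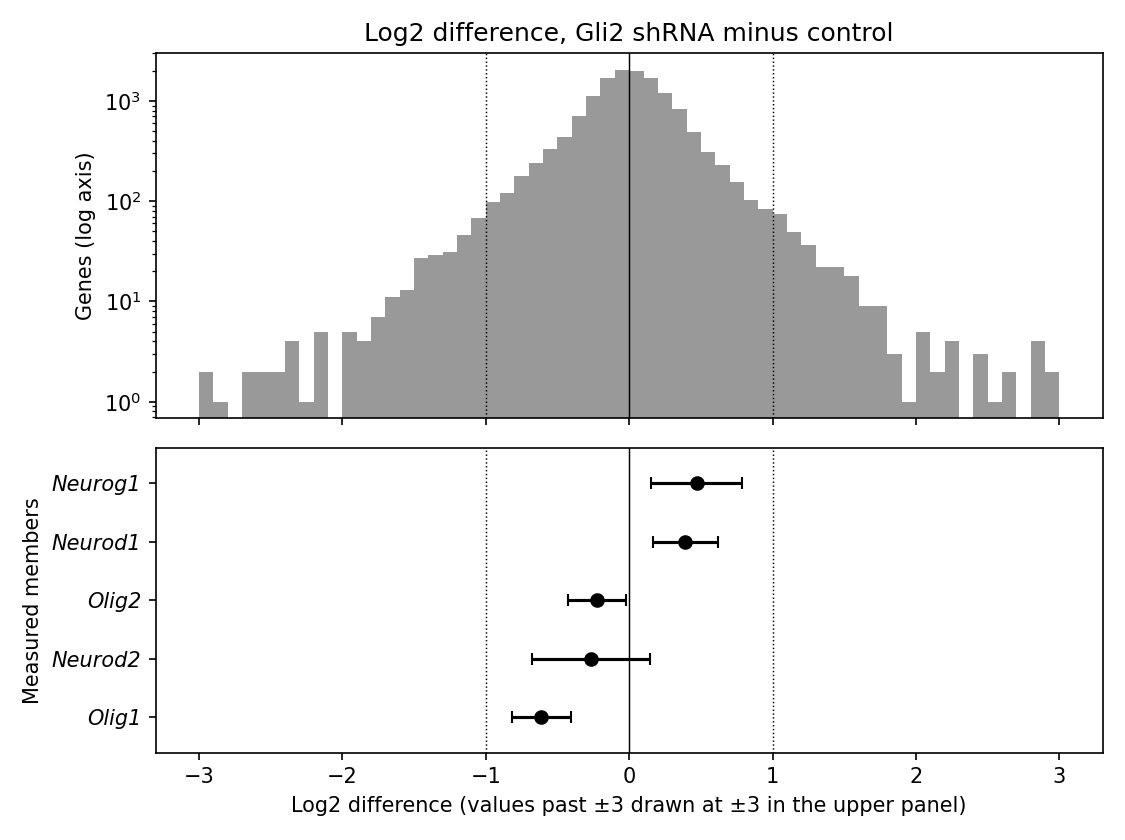
Upper panel: log2 differences (Gli2 shRNA minus control) of the 14563 genes measured on both arrays, counts on a log axis. Lower panel: the 5 measured members with the software error as bars. With 75th percentile scaling Neurog1 (-0.053 with normexp) and Neurod1 lie above 0, Olig2, Neurod2 and Olig1 below 0, and all 5 lie inside the dotted lines at 2-fold.

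Differences of members can be set against each other without the scaling. The Neurod1 difference exceeded that of Olig1 by 1.0 ± 0.30 and that of Olig2 by 0.62 ± 0.30 (software error). Over the alternatives these ran from 0.71 to 1.05 and from 0.39 to 0.68. Neurog1 exceeded Olig1 by 1.08 ± 0.38, and by 0.51 with normexp. Neurog1 and Neurod1 differed from each other by 0.08 ± 0.39, which is inside the error.

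**Figure D3:**
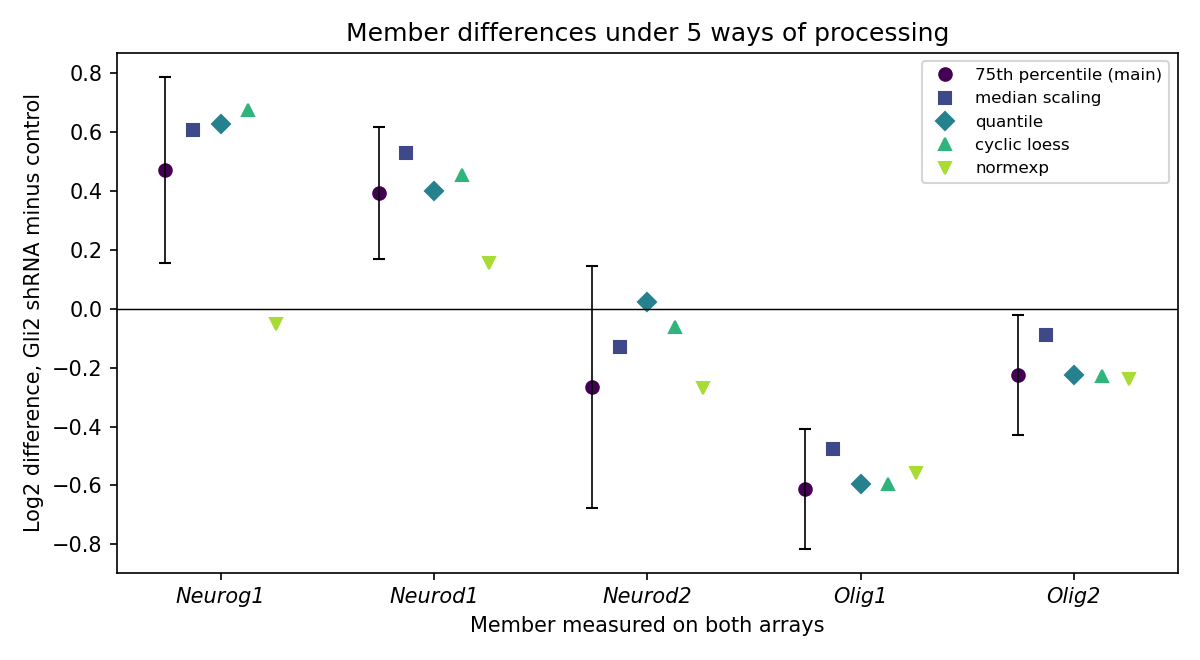
Log2 difference of the 5 measured members with 75th percentile scaling (software error as bars), median scaling, quantile normalization, cyclic loess and normexp background correction. Olig1 stays between -0.61 and -0.48 in the 5, while Neurog1 reaches -0.053 with normexp and Neurod2 reaches 0.02 with quantile normalization.

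Genes that work with these factors are described next from lists that were chosen with earlier results of these data known. Counts past 2-fold are set beside the 3.63% of all genes as a description and not as a test. Counts above and below 0 are to be read beside 7331 and 7232 of all genes measured on both arrays. Of 12 other proneural and neuronal bHLH genes, 2 were measured on both arrays, 3 on 1 array and 7 on neither. Atoh8, a divergent Atoh relative, differed by -0.54 ± 0.33 close to background (-0.26 with normexp), and Nhlh1, a bHLH factor of young neurons, by 0.07 ± 0.20. Nhlh2 and Ferd3l were measured on the control array only and were at least 1.51-fold and 1.44-fold lower, with smaller differences of -0.39 and -0.38 under normexp. Ascl2 was measured in Gli2 shRNA cells alone, at least 1.66-fold higher, and with normexp its difference was -0.04.

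E proteins are the dimer partners of proneural factors, and Id proteins block them by taking up the E proteins. All 7 were measured on both arrays and none was past 2-fold (median -0.08, 0.06 with median scaling and -0.15 with the mean of probes). The E protein genes Tcf3 (-0.08 ± 0.20), Tcf12 (-0.12 ± 0.20) and Tcf4 (-0.32 ± 0.20) lay below 0, of which Tcf3 (0.06) and Tcf12 (0.01) lay above it with median scaling. Their other measured probes gave -0.23 for Tcf3, -0.47 to -0.05 for Tcf12 and -0.43 to -0.26 for Tcf4. Among the Id genes, Id3 (0.41 ± 0.20) and Id1 (0.38 ± 0.20) were higher, Id2 (0.01 ± 0.20) was level and Id4 (-0.57 ± 0.21) was lower. The Id differences thus lay on both sides of 0.

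Repressors of proneural genes were also within 2-fold. Of 14 genes of that list, 11 were measured on both arrays, with 3 above 0, 8 below 0 and a median of -0.19 (-0.06 with median scaling). Hes5, a Notch-induced repressor of proneural genes, differed by 0.55 ± 0.20 (signals of 2014 in the Gli2 shRNA array and 1132 in the control array), and Hes1, its relative, by 0.19 ± 0.20. Zbtb18, a repressor in cortical neurons, differed by 0.35 ± 0.20. On the lower side lay Sox3, a progenitor factor (-0.73 ± 0.20), Hey1, a further Notch target (-0.44 ± 0.20), and Rest, the silencer of neuronal genes (-0.42 ± 0.20). Hes3 was measured on the control array only, at least 1.16-fold lower, with a difference of -0.47 under normexp. Its control signal of 14.5 was close to background.

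Of 38 genes described as targets of proneural factors, 28 were measured on both arrays. 18 of these lay above 0 and 10 below, and the median of 0.09 (0.02 with normexp, 0.23 with median scaling) compares with 0.003 over all genes. 3 of the 28 were past 2-fold, all higher, beside 1.84% of all genes higher by 2-fold. Scrt1, a zinc finger repressor of neurons, had a signal of 723 in the Gli2 shRNA array and 197 in the control array (1.60 ± 0.21, 3.03-fold), and its other measured probe gave 1.09. Trnp1, a nuclear protein of cortical progenitors, read 973 in the Gli2 shRNA array and 338 in the control array (1.25 ± 0.20, 2.37-fold). Btg2, an antiproliferative gene of neurogenic progenitors, differed by 1.18 ± 0.20, and its second probe by 1.53. These 3 were past 2-fold with normexp also, at 1.31, 1.13 and 1.04. Cbfa2t3, a corepressor measured in Gli2 shRNA cells alone, was higher by at least 2.19-fold, but its difference was 0.36 with normexp.

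Close Notch-pathway targets of proneural factors were short of 2-fold. The Notch ligand genes Dll3 and Dll1, which proneural factors switch on in the cells that will become neurons, differed by 0.46 ± 0.26 and 0.30 ± 0.22 at low signals, and by 0.03 and 0.07 with normexp. Hes6, which opposes Hes1, gave 0.17 ± 0.20 with its brighter probe and -0.13 with the second. On the lower side of the list were Dcx (-0.93 ± 0.20, with 2.75 on its other probe), Rgs16, a regulator of G protein signalling (-0.84 ± 0.20), and Srrm4, a neuronal splicing factor (-0.52 ± 0.22). The described targets hence held genes on both sides of 0.

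Of 34 genes around the Olig factors in the oligodendrocyte lineage, 25 were measured on both arrays, 8 above 0 and 17 below. Their median was -0.35, and it ran from -0.35 to -0.21 over the alternatives. 2 of the 25 were past 2-fold, both lower, beside 1.79% of all genes lower by 2-fold. Sox6, a factor of oligodendrocyte precursors, read 424 in the Gli2 shRNA array and 937 in the control array (-1.42 ± 0.20, 2.68-fold). Ptprz1, a receptor phosphatase of precursors and glioma cells, read 5561 in the Gli2 shRNA array and 9709 in the control array (-1.08 ± 0.20), with -1.57 on its other probe. With median scaling Ptprz1 was at -0.95, short of 2-fold, and 1 gene was past it in each direction.

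Other lineage genes had smaller differences. Zfp536, a zinc finger repressor, differed by -0.82 ± 0.30 at a low signal, 27.3 in the Gli2 shRNA array and 39.6 in the control array, and by -0.38 with normexp. Nkx2-2, a Hedgehog-responsive partner of Olig2, differed by -0.55 ± 0.20 and Pdgfra, the growth factor receptor of precursors, by -0.41 ± 0.21. Zfp488, an Olig2-binding cofactor, was level (-0.01 ± 0.20). Zeb2, a repressor needed for myelination, gave 0.56 ± 0.20 on its brightest probe and -0.31 to 0.30 on its others, and Lhfpl3, a precursor marker, gave 0.35 ± 0.21. Ugt8a, an enzyme of myelin lipids, gave 0.99 ± 0.36 and was dim, at 35.7 in the Gli2 shRNA array and 14.8 in the control array. Its difference was 0.13 with normexp, and it was past 2-fold with median scaling (1.13), quantile normalization (1.22) and cyclic loess (1.22). Sox10, the master factor of myelinating cells, was at background on both arrays, as were Cspg4, Gpr17 and Myrf. Nkx6-1 was measured on the Gli2 shRNA array only, at least 1.73-fold higher, with a difference of 0.05 under normexp. Bmp4 was measured on the control array only, at least 1.47-fold lower, with a difference of -0.22 under normexp.

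**Figure D4:**
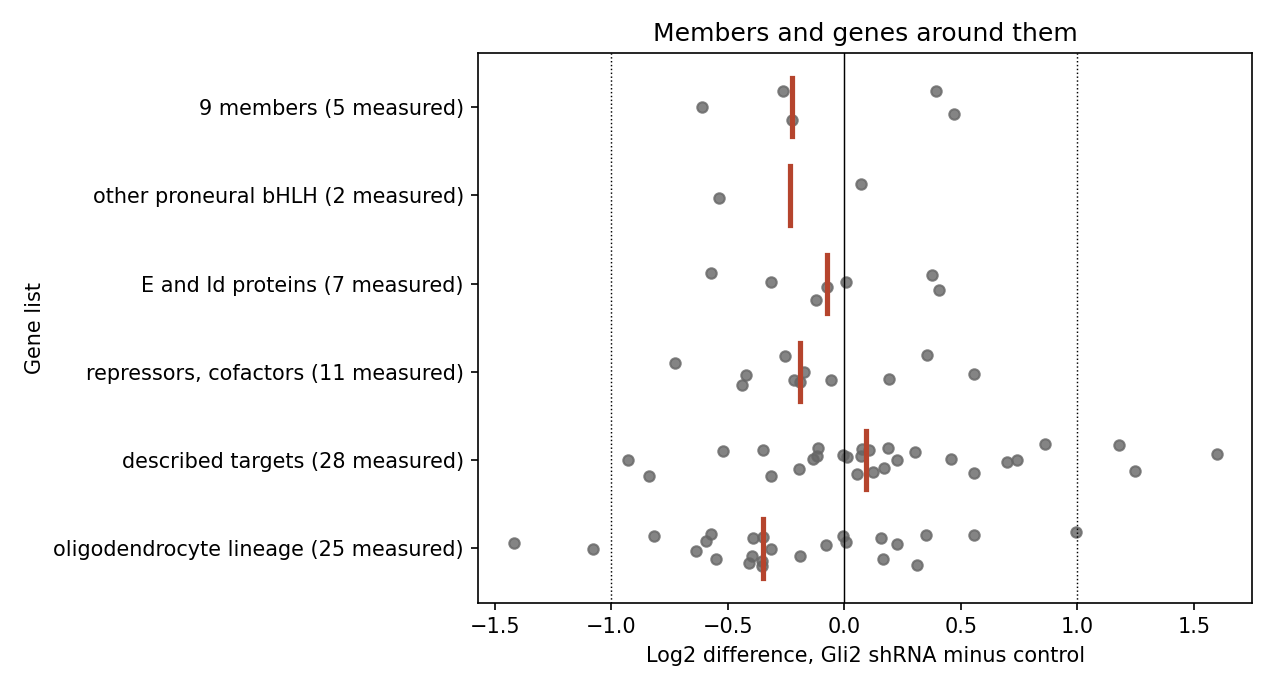
Log2 difference (Gli2 shRNA minus control) of every gene measured on both arrays among the 9 members and 5 lists of genes around them, with the list median as a red bar and 2-fold as dotted lines. The oligodendrocyte lineage list has its median at -0.35 and the described targets at 0.09, with Scrt1, Trnp1 and Btg2 past 2-fold on the higher side.

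Markers of cell types gave the setting. Of 10 neural stem cell markers 8 were measured on both arrays (median -0.06, and 0.08 with median scaling), with Sox2 at 6516 in the Gli2 shRNA array and 5594 in the control array, a scaled difference of -0.06 ± 0.20. Nes (0.47 ± 0.20), Hopx (0.36 ± 0.20) and Vim (0.35 ± 0.20) lay above 0. The other 5 lay below it, Sox9 (-0.47 ± 0.20) farthest. With median scaling 7 of the 8 lay above 0. Nr2e1 was measured on the control array only, at 15.4 in the Gli2 shRNA array and 27.2 in the control array. Its plain scaled fold was 2.14-fold lower, which is not a lower bound, and its difference was -0.41 with normexp. All 8 astrocyte markers measured on both arrays lay below 0 (median -0.33), or 6 of 8 with median scaling, and their part in the Olig values was not tested. Mlc1, an astrocyte membrane protein, was the 1 marker past 2-fold, with signals of 3149 in the Gli2 shRNA array and 5479 in the control array (-1.08 ± 0.20, and -0.94 with median scaling). The summed astrocyte signal, in units of the array's 75th percentile, was 263 in the Gli2 shRNA array and 301 in the control array. Such a sum follows the brightest probe of its list, here Fabp7 (91127 in the Gli2 shRNA array and 82583 in the control array). Neuronal markers were on both sides of 0 (11 measured, median 0.008), with Elavl3 at 0.83 ± 0.21 and Tubb3 at 0.74 ± 0.20 on the higher side, Dcx at -0.93 (2.75 on its other probe) and Map2 at -0.49 ± 0.20 on the lower side, and Stmn2 at background. Their summed signal was 61.4 in the Gli2 shRNA array and 76.8 in the control array, and it mainly follows Map2. By far the brightest of this list, Map2 read 16146 in the Gli2 shRNA array and 18672 in the control array. Of 10 microglial and macrophage markers, 4 were well above background in the Gli2 shRNA array and 7 in the control array. Of all probes, 57.1% and 59.5% were. The 3 markers measured on the control array only, Aif1, P2ry12 and Tmem119, were close to background there, at 17.5, 19.1 and 21.5. The 4 measured on both arrays had a median of -0.10, and 0.04 with median scaling. The summed microglial signal in the same units was 15.9 in the Gli2 shRNA array and 16.9 in the control array, and it mainly follows Itgam. Itgam read 5413 in the Gli2 shRNA array and 4694 in the control array (a scaled difference of -0.07 ± 0.20, and 0.37 on its other probe), whereas Cx3cr1, Ptprc and C1qa were at background. Of 7 endothelial markers 3 were measured on both arrays, 1 above 0 and 2 below, with a median of -0.04 (0.10 with median scaling). The summed endothelial signal was 2.66 in the Gli2 shRNA array and 1.80 in the control array, and it mainly follows Emcn (0.74 ± 0.20). Of 8 mesenchyme and pericyte markers 2 were measured on both arrays, with a median of -0.19 (-0.06 with median scaling). In an RNA sample of many cells, fewer cells of a type and less RNA per cell cannot be told apart.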

How the data were processed

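Total RNA was labelled with Cy3 and hybridised to 1-colour Agilent arrays, 1 per group, per the labels' protocols. The deposited scanner files hold processed intensity, its error and background flags from Agilent Feature Extraction 12.1.0.3 (protocol GE1_1200_Jun14, design 074809, grid build mm9), per the file headers. The authors' deposited value table is on a log2 scale and equals log2 processed intensity minus 8.64 (Gli2 shRNA) and 8.36 (control), found by comparison. Both arrays share 1 slide and 1 scan. Control spots were left out, as were spots marked non-uniform or population outliers (120 in the Gli2 shRNA array, 126 in the control array), and no spot was saturated. Spots of a probe were averaged as log2 values, and each array's 75th percentile (a signal of 399 in the Gli2 shRNA array and 329 in the control array) was subtracted. Accessions were matched to the RefSeq gene table of GRCm38.p6, used for names, chromosomes and neighbours. A gene with several probes is its brightest probe. A gene measured on 1 array has a lower bound, its dim side set to the higher of its own signal and the lowest signal well above background, written "at least N-fold". The software error is not part of this bound, which holds for the 75th percentile scaling and does not carry over to normexp. Where the dim side's own signal was the higher, as for Nr2e1, the plain fold is given. Size was called at 2-fold, with no test. The members and gene lists were chosen with earlier results of these data known. Beside the members and Gli2, the genes named are mainly those of each list past 2-fold, up to 3 with large differences in each direction and a fixed set of partners. Zfp488, Cspg4, Gpr17, Myrf, Nkx6-1, Bmp4 and some cell type markers are named outside this rule, and not every marker with a large difference is named. A gene planned for these lists is not reported here. The planned normexp alternative used median signals (offset 50), since the files hold no mean signal column. Others were median scaling, quantile normalization, cyclic loess, the authors' table, filters, flagged spots, the mean of probes and other size rules. Scripts used Python 3.11.15 and limma 3.58.1 and were tested on simulated data. The number of arrays limits the precision.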

Additional observations from a re-analysis of the deposited data

How the results depend on the processing

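With normexp the difference of Neurog1 was -0.053 and that of Neurod1 0.15, and genes past 2-fold numbered 67 higher and 100 lower, against 268 and 260 as reported. Without the filter on dim probes 769 were higher and 2075 lower, with the stricter filter (both signals at least 4 times the lowest well above background) 147 and 143, at 1.5-fold 874 and 953, and at 3-fold 46 and 47. At 1.5-fold 1 member was past the limit. Among settings that kept the 2-fold rule, the count of members past 2-fold was 0 in all. The median of the other proneural bHLH genes was 0.069 with the stricter filter, where it covers 1 gene in place of 2, and that of the microglial list was -0.36 without the filter. Neurod2 changed sign with quantile normalization (0.02). The cause of these shifts was not tested. Median scaling, which put the median of all genes at 0.14, gave 384 higher and 176 lower, and cyclic loess 315 and 221. Dim members (Neurog1, Neurod2) are limited by signal over background. No paired analysis was possible because each group holds 1 array.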
